A study of Mus musculus with 2 samples.

Results

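The FOS and JUN family factors are the genes of the AP-1 transcription factors, and 9 of them were taken by name: Fos, Fosb, Fosl1, Fosl2, Jun, Junb, Jund, Batf and Atf3. They are 9 of 55536 annotated genes in the tables, of which 21951 are protein-coding. Levels were measured by total RNA sequencing of neutrophils from the peripheral blood of adult C57BL/6J mice aged 5 to 6 weeks. There were 2 libraries, all of the same group and labelled biological replicate 1 and 2, each made from 100 ng of RNA with the ScriptSeq v2 kit. The labels name no genotype beyond the strain, no agent and no second condition, so levels are described with their spread between the libraries and no test between conditions applies. Both libraries carry the same donor identifier, and that spread may therefore be technical.

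AP-1 proteins bind DNA as pairs held together by a leucine zipper next to a basic, DNA-contacting stretch (together, the bZIP domain). FOS proteins need a JUN protein as partner, whereas JUN proteins can also pair with each other and with ATF and BATF proteins. Several of the genes are immediate early genes: their transcription starts within minutes of a signal through MAP kinases, and their messenger RNAs are short-lived. In neutrophils they are known to respond to handling, adhesion and inflammatory signals.

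The libraries held 22647028 expected counts (reads assigned to a gene by estimation) in replicate 1 and 21471719 in replicate 2, and a gene without a count lies under 0.132 and 0.140 CPM (counts scaled to the library total), respectively, at a limit of 3 counts. Values are TPM (transcript levels per length, scaled to a fixed total per library) from the gene table on GENCODE M21 unless another quantity is named, as mean ± SD over both libraries (n = 2). Protein-coding genes took 8.98% of that scale in replicate 1 and 8.51% in replicate 2. All 15 neutrophil markers were detected, with summed levels of 2714 and 2733 TPM, but so were all 12 B-cell markers, with 755 and 678 TPM in replicates 1 and 2. None of the 12 B-cell markers was at 0, and their median was 41.8 ± 4.02 TPM against 51.6 ± 2.64 for the neutrophil markers. Red-cell, monocyte, T-cell and platelet markers were also present, with 5 of 9, 9 of 12, 10 of 12 and 5 of 10 detected. The red-cell markers had the largest summed level of the marker lists, 4329 and 4264 TPM, above that of the neutrophil markers in both libraries. The sums were 41.6 and 38.7 TPM for monocyte, 38.2 and 37.2 for T-cell and 25.8 and 26.2 for platelet markers. How much of each member's level came from which of these cells was not tested, and in such bulk samples fewer cells of a type cannot be told apart from less RNA per cell.

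Fos and Junb led the group, Jund followed, and Fosl1 was not detected. A gene counted as detected if neither library was under 1 TPM. By that rule 8 of the 9 members were detected, beside 35% of all protein-coding genes (7680 of 21951). The members were not a random choice of genes, so the share of all genes is given for scale. Their levels spanned from 106 ± 2.60 TPM for Fos to 4.36 ± 0.262 for Batf. In the order Fos, Junb, Jund, Atf3, Fosl2, Jun, Fosb, Batf and Fosl1, 1 of the 8 neighbouring pairs overlapped between the libraries, Atf3 with Fosl2. The other 7 pairs stood apart in both libraries, with the narrowest gap, 0.39 TPM, between Fosb and Batf. No gene of like pattern is named, because 2 libraries of 1 group give no pattern across samples.

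**Figure D1:**
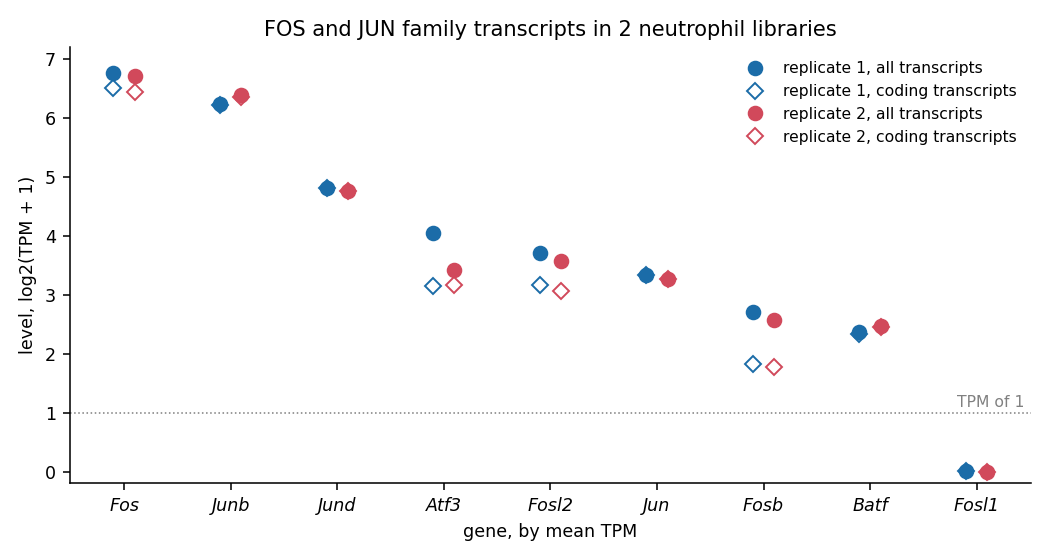
Level of each member as log2(TPM + 1), with 1 point per library; filled circles count all transcripts of the gene and open diamonds only those annotated as coding. Fos and Junb stand highest and Fosl1 at the bottom, and the circle and diamond part for Fos, Atf3, Fosl2 and Fosb.

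Fos, the founding partner of the FOS family, was the highest member. It reached 107.93 TPM in replicate 1 and 104.26 in replicate 2, from 18284 and 17585 expected counts. The gene (ENSMUSG00000021250.13) lies on the plus strand at chr12:85473890-85477273 of GRCm38. It ranked 87th and 86th among the protein-coding genes of the libraries, in the top 1% of them. Fos alone made up 86.4 ± 0.624% of the summed TPM of the FOS family, so that the family's total was close to the level of this gene.

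Fosl2 encodes FRA-2, a FOS protein without the strong activating tail of FOS itself. Its level was 12.07 TPM in replicate 1 and 10.85 in replicate 2 (11.5 ± 0.863), from 6145 and 5605 expected counts at chr5:32135801-32157842. Fosb, a signal-induced relative of Fos, stood at 5.53 and 4.93 TPM (5.23 ± 0.424), from 1911 and 1718 counts at chr7:19302696-19310051 on the minus strand. Fosl2 was thus above Fosb in both libraries, and both stood far below Fos. Fosl1 encodes FRA-1, best known from adhering and migrating cells, and lies at chr19:5447547-5455946. It had 2 expected counts in replicate 1 and 0 in replicate 2, both under the limit of 3 counts, so it was not detectable at this depth.

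Junb, a JUN protein that often holds back growth-promoting targets of JUN, was the highest of its family and the second of all members. Its level was 74.5 TPM in replicate 1 and 82.5 in replicate 2 (78.5 ± 5.66), from 11809 and 13200 expected counts at chr8:84974484-84978718. Jund, the JUN gene that is commonly expressed without a stimulus, stood at 27.18 and 26.0 TPM (26.6 ± 0.834) and lies at chr8:70698949-70700616. Jun, the founding member, stood at 9.14 and 8.63 TPM (8.89 ± 0.361) and lies at chr4:95049034-95052222 on the minus strand. The 3 genes did not overlap, and Junb was 2.95 times as high as Jund by their means. Junb made up 68.8 ± 2.27% of the JUN family's summed TPM, Jund 23.4 ± 1.65% and Jun 7.81 ± 0.622%.

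The remaining members pair with JUN proteins without belonging to either family. Atf3, a stress-induced factor that mostly represses, stood at 15.51 TPM in replicate 1 and 9.76 in replicate 2 (12.6 ± 4.07) and lies at chr1:191170296-191218039 on the minus strand. Replicate 1 was the higher, and the range between the libraries takes in the level of Fosl2. Batf, which pairs with JUN proteins and acts with the interferon regulatory factors IRF4 and IRF8 in lymphocytes, stood at 4.17 and 4.54 TPM (4.36 ± 0.262) from 316 and 352 counts at chr12:85686669-85709087. Irf8 and Irf4 were both detected, at 12.5 ± 0.693 and 5.42 ± 0.120 TPM. The part that B cells, whose markers are given above, had in the levels of Batf, Irf8 and Irf4 was not tested.

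The sums of the 2 families lay close together. The FOS family summed to 125.54 TPM in replicate 1 and 120.04 in replicate 2, and the JUN family to 110.82 and 117.13. On the log2 scale the JUN sum over the FOS sum was -0.18 and -0.04, with a mean of -0.11 ± 0.10, about the size of its own spread. Counting only transcripts that are annotated as coding, an alternative chosen after seeing the data, the order turned around. The FOS sums were then 101.24 and 95.5 TPM and the JUN sums 109.57 and 115.73, a log2 ratio of 0.20 ± 0.12 that was above 0 in both libraries. The alignment-free table, a further deposited table that estimates transcript levels without an alignment, turned around in the same way, from -0.38 ± 0.10 with all transcripts to 0.40 ± 0.11 with coding ones. Whether the JUN or the FOS transcripts were the more abundant therefore depended on whether the non-coding transcripts of the FOS genes were counted.

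**Figure D2:**
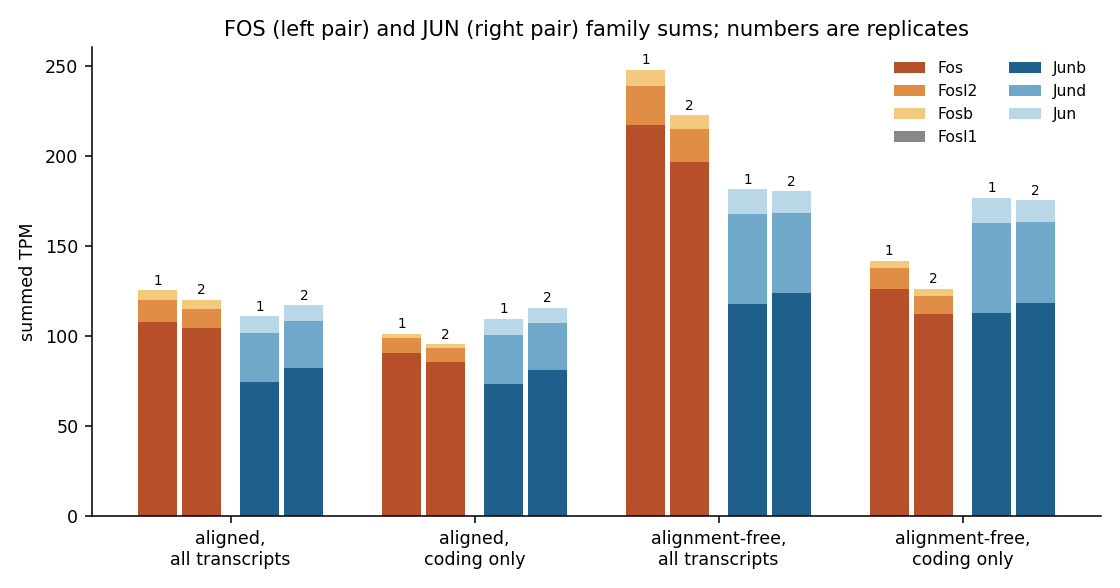
Summed TPM of the FOS family (left pair of bars) and the JUN family (right pair) in replicates 1 and 2, by table and by the transcripts counted, with each member as a segment; bars start at 0. With all transcripts the FOS bars are the taller ones in both tables, and with coding transcripts only the JUN bars are.

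The members differed in how much of their level lay on coding transcripts. The annotation lists 26 transcripts for the 9 genes, of which 16 are coding and 7 had 0 counts in both libraries. Jun and Jund each have a single transcript in 1 exon, and the 1-exon coding transcript Junb-201 took 98.3% of the TPM of Junb in both libraries. Batf-201 took 96.65% and 98.20%. By contrast, non-coding transcripts took 16.0% and 17.8% of Fos, 33.9% and 31.9% of Fosl2, 53.7% and 51.0% of Fosb, and 48.9% and 18.0% of Atf3 in replicates 1 and 2. The median over 6298 detected protein-coding genes with a non-coding transcript was 27.9% and 27.7%, so Fos stood below it in both libraries, Fosl2 and Fosb above it, and Atf3 on both sides of it. Fosb was the only member with 50% or more in both libraries, which 17.2% of those 6298 genes also reached. With the alignment-free estimates 25.6% of the genes did, and there Atf3 was the only detected member to do so, with 62.8% and 50.8%, while Fosb had 53.9% and 49.5%. The median by those estimates was 35.1% and 34.7%, and Fos stood above rather than below it, at 41.8% and 42.9%. Atf3, Fosl2 and Fosb were also above that median in both libraries. The side of the median on which Fos fell thus depended on the table.

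**Figure D3:**
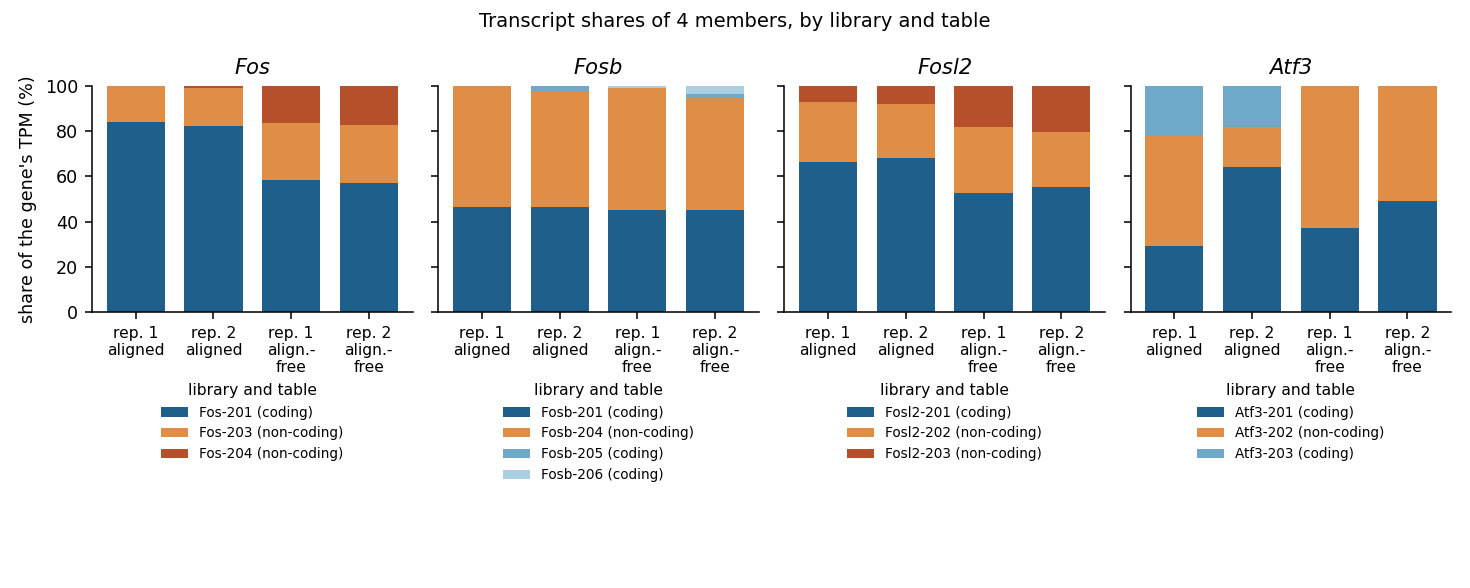
Share of each gene's TPM by transcript for Fos, Fosb, Fosl2 and Atf3 in each library, from the aligned and the alignment-free table; blue segments are coding and orange or brown ones non-coding, and transcripts under 1% in all 4 bars are left out. The bars of both libraries look alike for Fos, Fosb and Fosl2, while those of Atf3 differ between the libraries.

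In Fosb the leading non-coding transcript was an unspliced one. Fosb-204 is annotated as a retained intron: it is a single exon of 3629 nt that runs from the gene's start past intron 1 and holds 2461 bases that are intronic in the coding transcript Fosb-201. The sequences at the end of exon 1, from the GENCODE M21 transcripts, show where the spliced and the unspliced form part, with the bases after exon 1 in capitals.
Fosb-201, exon 1 to exon 2: gccgccgcctcccagGAGTGCGCCGGTCTC
Fosb-204, exon 1 to intron 1: gccgccgcctcccagGTAAGTTTTAGATCG
The capitals of the unspliced form open with GT, the usual start of an intron, and the 1865-base intron 1 follows at chr7:19307441-19309305. Fosb-204 took 53.75% of the Fosb TPM in replicate 1 and 51.05% in replicate 2, and Fosb-201 took 46.25% and 46.40%. Their levels were 2.97 and 2.52 TPM for the unspliced form against 2.56 and 2.29 for the spliced one, a small excess in both libraries. In the alignment-free table the shares were 53.9% and 49.5% for Fosb-204, and 45.0% and 45.3% for Fosb-201, again nearly even. The deposited interval of Fosb-201 in replicate 1, 1.89 to 2.53, did not contain its own estimate, so these bounds do not give the error of the split.

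A shortened Fosb protein, known as ΔFosB, is made when a segment inside the last exon is spliced out, which brings an early stop codon into frame. This form is known for building up in neurons under repeated stimulation. The segment is 140 bases long and lies at chr7:19305007-19305146. It is shown in capitals within Fosb-201, and below it is the end of the reading frame of Fosb-206 across the new junction, with the stop codon in capitals.
Fosb-201: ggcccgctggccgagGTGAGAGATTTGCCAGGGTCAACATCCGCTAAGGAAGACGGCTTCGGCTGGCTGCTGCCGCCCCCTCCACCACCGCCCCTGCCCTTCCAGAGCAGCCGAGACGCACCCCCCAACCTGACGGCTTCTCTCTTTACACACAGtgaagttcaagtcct
Fosb-206: ccggggccaggcccgctggccgagTGA
Fosb-206 and Fosb-207 lack the segment and encode 237 and 201 codons, against 338 in Fosb-201. Both had 0 expected counts in both libraries of the aligned table. The alignment-free table gave Fosb-206 6.80 and 19.4 estimated counts, which is 1.08% and 3.44% of the Fosb TPM in replicates 1 and 2, and gave Fosb-207 none. The shortened form was thus at most a small part of Fosb transcripts in these estimates, and whether it was present differed between the tables.

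Fosl2 also had intron-holding transcripts. Fosl2-202, a single exon of 3472 nt, carries 2839 bases of intron 1, and Fosl2-203 carries 304 intronic bases before exon 2. The same boundary is shown for Fosl2, with the bases after exon 1 in capitals.
Fosl2-201, exon 1 to exon 2: ggcggcggccagcagAAGTTCCGGGTAGAT
Fosl2-202, exon 1 to intron 1: ggcggcggccagcagGTACGTGCGGGCCGG
The coding Fosl2-201 took 66.14% of the TPM in replicate 1 and 68.06% in replicate 2. Fosl2-202 took 26.75% and 23.88%, and Fosl2-203 took 7.11% and 8.06%. The alignment-free table gave the coding form less, 52.7% and 55.2%, and Fosl2-203 more, 18.4% and 20.6%. In all 4 estimates the coding form was the leading one, unlike in Fosb.

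In Fos the coding transcript led by a wider margin. Fos-203 starts inside intron 1 and holds 244 of its bases before exon 2, and Fos-204 starts at the same place with 105 intronic bases. The boundary is shown with intron bases in capitals for Fos-203 and exon 2 in capitals for the coding form.
Fos-201, exon 1 to exon 2: cctgtcaacacacagGACTTTTGCGCAGAT
Fos-203, intron 1 to exon 2: TTTGTTTTGTTTCAGgacttttgcgcagat
Fos-201 took 84.03% and 82.20% of the TPM in replicates 1 and 2, which is 90.69 and 85.7 TPM. Fos-203 took 15.82% and 16.65%, and Fos-204 took 0.15% and 1.16%. The alignment-free table gave Fos-201 58.2% and 57.1%, Fos-203 25.4% and 25.6% and Fos-204 16.5% and 17.3%. The libraries differed little within each table, and the tables differed from each other in both libraries.

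**Figure D4:**
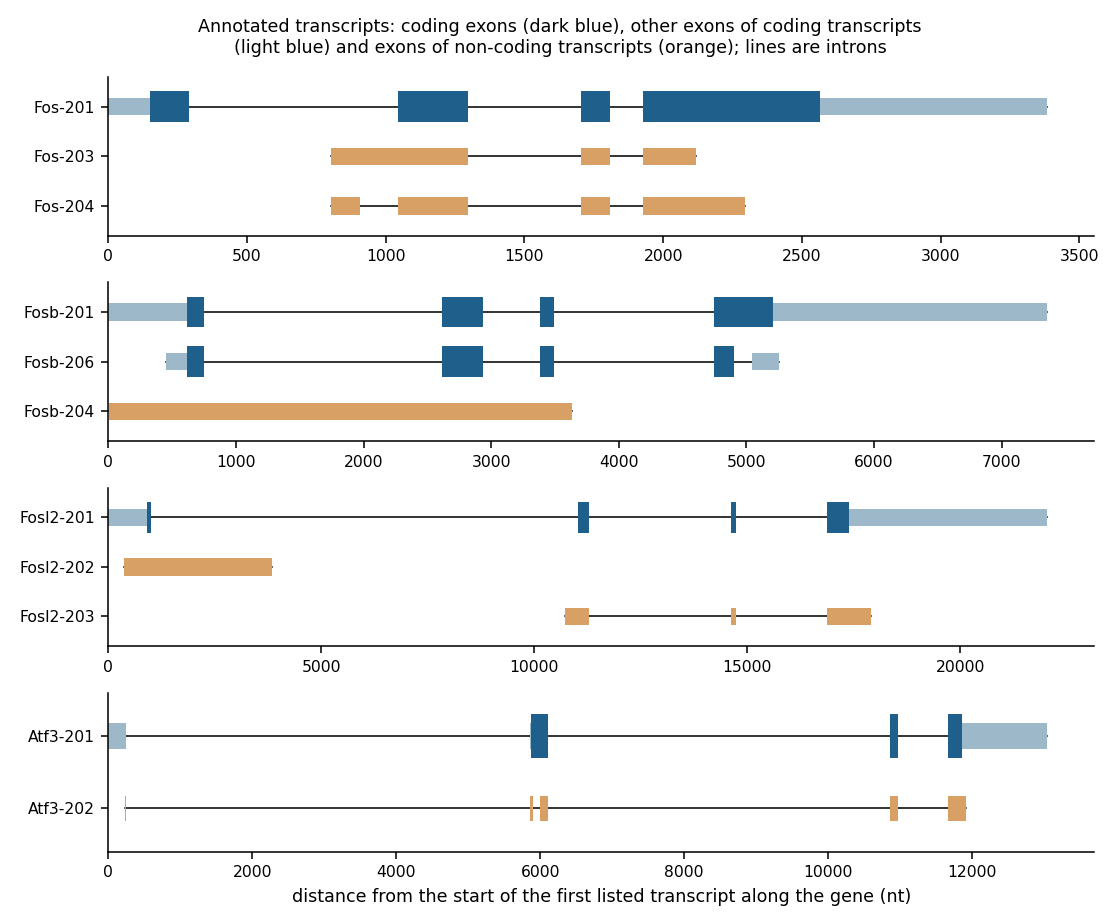
Annotated transcripts of Fos, Fosb, Fosl2 and Atf3 along each gene, in nt from the start of its first listed transcript; dark blue marks coding exons, light blue the other exons of coding transcripts, orange the exons of non-coding transcripts, and lines introns. The non-coding forms of Fos, Fosb and Fosl2 run into introns, whereas that of Atf3 follows the spliced exons.

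The non-coding form of Atf3 holds no intronic bases, unlike the leading ones of Fos, Fosb and Fosl2. Atf3-202 is a processed transcript of 517 nt in 5 exons from which 106 coding bases of exon 2 are missing, at chr1:191177341-191177446. That segment is in capitals in Atf3-201, and the bases that follow the junction are in capitals in Atf3-202.
Atf3-201: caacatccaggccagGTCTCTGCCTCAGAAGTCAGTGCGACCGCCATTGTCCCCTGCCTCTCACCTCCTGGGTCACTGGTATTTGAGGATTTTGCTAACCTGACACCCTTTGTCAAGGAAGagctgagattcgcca
Atf3-202: caacatccaggccagAGCTGAGATTCGCCA
A loss of 106 bases is no multiple of 3 and shifts the reading frame, and the annotation gives Atf3-202 no coding sequence. This transcript stood at 7.59 TPM in replicate 1 and 1.76 in replicate 2, from 261 and 61.8 expected counts. The deposited intervals were 5.89 to 8.98 and 0.202 to 3.05, with the limit on such bounds given for Fosb-201. The 2 coding transcripts, Atf3-201 and Atf3-203, encode the same number of codons, 181, and together stood at 7.92 and 8.00 TPM. In these estimates the coding sum was therefore nearly level between the libraries, and the difference in the gene's TPM was assigned to Atf3-202. The division of reads between Atf3-202 and the coding forms is itself an estimate, and its error was not tested. The split between the coding forms was uncertain: Atf3-201 took 29.06% and 64.02% of the gene's TPM and Atf3-203 21.98% and 17.97%, but the alignment-free table gave Atf3-203 none. That table also put the coding sum nearly level, at 11.9 and 11.0 TPM, and Atf3-202 higher in replicate 1, at 20.1 against 11.4 TPM.

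For Fosl1, the 2 expected counts of replicate 1 lay on the coding Fosl1-201. The alignment-free table listed 7 estimated counts there, 3 on Fosl1-201 and 4 on the retained-intron form Fosl1-202, and 0 in replicate 2. These counts are too few to describe a transcript pattern.

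Between the libraries, 0 of the 8 members that passed the filter were 2-fold apart in (TPM + 1), beside 0.923% of all 9097 genes that passed (84 genes). The filter asked for 1 TPM or more in either library and 50 expected counts in the higher one. Of the 8155 protein-coding genes that passed, the class to which the members belong, 3 were 2-fold higher in replicate 2 and 10 in replicate 1. That is a smaller share than over all passing genes. The median log2 ratio of replicate 2 over replicate 1 was -0.07 over these 8 members and -0.08 over all passing genes. Atf3 was the farthest apart, at -0.62 on the log2(TPM + 1) scale, a 1.59-fold higher TPM in replicate 1. That was a larger difference than in 97.3% of passing genes. Relative to the library totals, however, the expected counts of Atf3 differed little, with a ratio of 0.953 (95% counting interval 0.888 to 1.02). Counts and TPM parted because the gene's effective length, which weights its transcripts by their levels, was 1083 nt in replicate 1 and 1547 nt in replicate 2.

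Junb was the member whose 95% counting interval lay farthest from 1. On the log2(TPM + 1) scale, however, Junb differed by more than only 52.0% of passing genes, so by an ordinary amount for these libraries. Its count ratio of replicate 2 over replicate 1 was 1.18 (95% counting interval 1.15 to 1.21), while that of Fos was 1.01 (0.994 to 1.04). Fosl2 was slightly lower in replicate 2, at 0.962 (0.928 to 0.998), and Batf higher, at 1.17 (1.01 to 1.37). The intervals of Jun, Jund, Fosb and Atf3 contained 1. These intervals cover counting error only and compare the 2 libraries, not conditions. They are scaled by the library totals. The edgeR TMM factors, 1.007 in replicate 1 and 0.993 in replicate 2, would raise every ratio slightly. The intervals of Fosl2 and Fos end close to 1, so whether they contain it depends on the scaling. The order of Fos over Junb held in both libraries, with a ratio of 1.35 between their means.

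**Figure D5:**
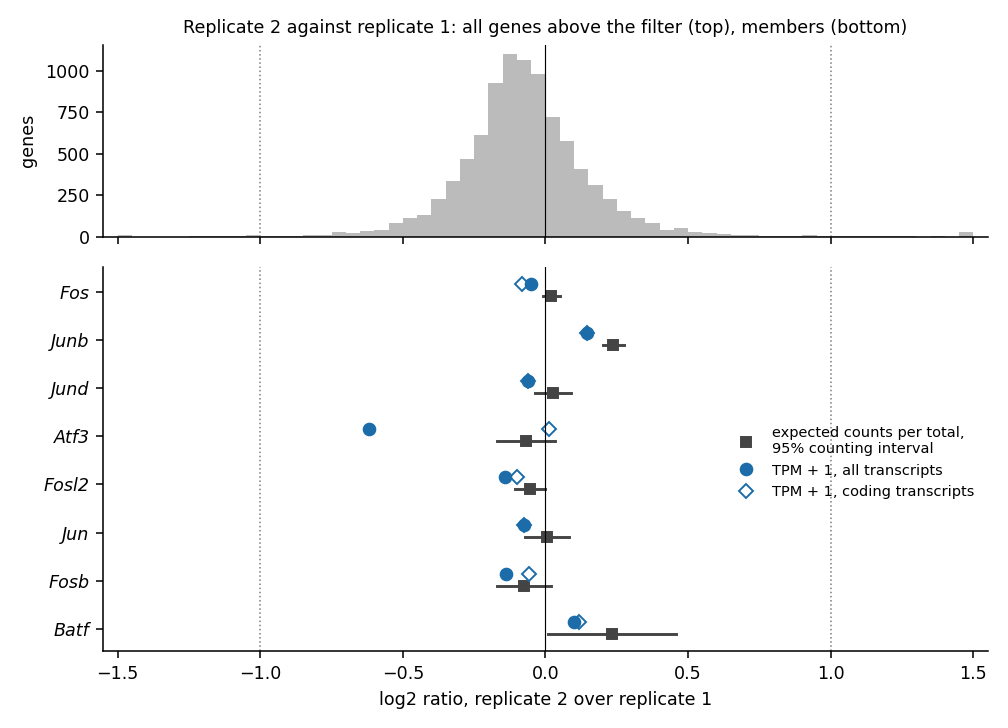
Log2 ratio of replicate 2 over replicate 1 for all 9097 genes above the filter (top, values beyond 1.5 placed in the end bins) and for the 8 detected members (bottom), by expected counts with 95% counting intervals, by (TPM + 1) of all transcripts and by (TPM + 1) of coding transcripts; dotted lines mark 2-fold. Atf3 is far from 0 only by the TPM of all transcripts.

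The levels of 3 members differed between the gene models. On the older GENCODE M4 models, Jund stood at 15.45 and 14.72 TPM rather than 27.18 and 26.0. Its expected counts were nearly the same, 4048 and 3891 against 3993 and 3857, but its effective length in replicate 1 was 2713 nt on M4 and 1503 nt on M21. Fosb stood at 2.97 and 2.78 TPM on M4 and Fosl2 at 8.71 and 8.04. For these genes M4 has only 1 transcript each, and the expected counts were lower too, 1028 and 970 for Fosb and 4785 and 4450 for Fosl2. Coding transcripts alone on M21 gave values near those, 2.56 and 2.42 TPM for Fosb and 7.98 and 7.38 for Fosl2. On M4, Jun (9.25 and 8.73 TPM) stood above Fosl2 and Batf (4.08 and 4.51) above Fosb in both libraries, the reverse of their order on M21. Counting coding transcripts only on M21, Jun stood above Atf3 and Fosl2, and Batf above Fosb.

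Some members overlap other genes on the opposite strand, and how the tables treat strand is not given in the sources used here, so reads there cannot be assigned to a strand. Jund shares 877 exon bases with the antisense gene Gm11175, which had 54 and 91 expected counts. Jun shares 232 with Junos, at 24 and 16 counts, and Junb shares 173 with Prdx2, at 547 and 579. The overlapping genes had far fewer counts than the members in these 3 pairs. For Fosl1 the reverse held, since Ccdc85b, with which it shares 1163 bases, had 108 and 85 counts.

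Among all 52 bZIP genes measured, 34 were detected, and 18 stayed under 1 TPM throughout. Fos and Junb were the 2 highest, followed by Atf4, a factor of the amino acid and stress response, at 31.5 ± 0.113 TPM, which was above Jund in both libraries. Other possible partners of the members were lower than Fos, Junb, Atf4 and Jund. Of 10 such genes 5 were detected, led by Atf2 (6.81 ± 0.368 TPM) and Atf7 (5.68 ± 0.997), which pair with JUN, and Jdp2 (5.49 ± 0.467), a repressor that pairs with JUN. The large MAF gene Maf, the small MAF gene Maff and the BATF relatives Batf2 and Batf3 each stayed under 1 TPM throughout, while the other small MAF genes, Mafk and Mafg, were detected at 4.34 ± 0.559 and 2.48 ± 0.566 TPM. No gene of either list was 2-fold apart between the libraries.

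The kinases that signal to AP-1 were broadly detected. Of 18 MAP kinases, their activators and ribosomal S6 kinases downstream of them, 15 were detected. The 2 that stayed under 1 TPM throughout were Mapk12 and Mapk10. Mapk14, the main p38 kinase, was the highest at 16.7 ± 0.304 TPM, and Map2k1, an activator of ERK kinases, stood at 11.7 ± 0.0778. Of 7 regulators that bind the Fos promoter through serum-response and cyclic AMP elements or act with them, 5 were detected. Elk4, a partner of serum response factor, led with 18.5 ± 2.18 TPM and Creb1 followed with 12.4 ± 1.30, while Elk1 and Mrtfb were under 1 in both libraries. Of 6 genes that control the breakdown of JUN or FOS proteins, 4 were detected. The ubiquitin ligases Cop1 and Itch led them at 20.2 ± 0.495 and 11.7 ± 1.07 TPM, followed by Trib1, an adaptor for COP1, at 6.42 ± 0.453.

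Other early-response genes were divided in level. Of 16 such genes, 10 were detected and 5 stayed under 1 TPM in each library. Dusp1, a phosphatase that switches off MAP kinases, stood at 92.41 and 88.42 TPM in replicates 1 and 2, between Fos and Junb by its mean of 90.4 ± 2.82. Btg2, which restrains cell division, and Klf6, a zinc-finger factor, stood at 51.7 ± 0.368 and 51.6 ± 2.99 TPM. In contrast, Klf4, a zinc-finger factor, and Egr1 and Egr3, which are induced by the same serum-response route as Fos, stood at 0.975 ± 0.00707, 0.810 ± 0.0424 and 0.515 ± 0.0636 TPM. Egr1 had 261 and 253 expected counts, so it was measured well above the limit of 3 counts and far below Fos in both libraries. With 1 condition in the series, whether any of these levels was set by the handling of the cells was not tested.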

How the data were processed

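The 2 total RNA libraries of mouse blood neutrophils, 1 group, were used. The authors deposited a gene table on GENCODE M21 and another on GENCODE M4, each with an expected count and a TPM per gene, per the file headers. A deposited transcript table adds each transcript's percent of its gene. Its TPM interval bounds, here treated as a score, come from the authors with no stated level. A further deposited transcript table (estimated count and TPM) has no alignment among its parents and is called alignment-free here. Which programs made these tables is not given in the sources used here. Names, transcript types, sequences and coordinates came from GENCODE M21 on GRCm38 (mm10).

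The members and gene lists were chosen with earlier results of these data known. All 9 members are named with both library values. Their transcripts are named at a mean share of at least 10% in either table, or where the text marks another reason: Fosb-206 and Fosb-207 are named for the known ΔFosB form. Of each other list, the 3 highest genes and up to 3 under a TPM of 1 are named. Batf2, Mafk and Mafg fall outside this rule and were chosen with their values known. Genes that meet it but are not reported here remain in the counts.

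Levels are TPM, with log2(TPM + 1) between libraries, and no test across genes was run. Count ratios have exact conditional binomial 95% intervals on rounded counts, which cover counting error only, since PCR copies are not independent molecules. Entries with only a number (26248, with 37.0 and 46.4 counts) and 97 spike-in entries at 0 were left out. Alternatives were M4, the alignment-free table, other thresholds, a pseudocount of 0.1, a scale of protein-coding genes, edgeR 4.0.16 TMM factors, DESeq2 1.42.0 size factors and each library alone. Coding transcripts only was added after seeing the data. Python 3.11.15 with numpy 2.4.6, pandas 2.3.3, scipy 1.17.1 and matplotlib 3.10.9 was used.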

Additional observations from a re-analysis of the deposited data

How the results depend on the processing

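The count of 8 detected members held with M4, the alignment-free table, the protein-coding scale, a TPM threshold of 0.5 and either library alone (8 to 8), and became 6 at a threshold of 5. The log2 ratio of the JUN over the FOS sum, -0.11, was -0.23 with M4, -0.38 with the alignment-free table and -0.43 with summed expected counts, which are not per length. It turned around to 0.20 with coding transcripts only, to 0.40 with coding transcripts of the alignment-free table, and to 1.09 without Fos and Junb. It ranged from -0.18 to -0.04 with 1 library left out. The median member log2 ratio between the libraries, -0.07, was -0.17 with the alignment-free table and reversed to 0.033 with edgeR TMM factors and to 0.026 with DESeq2 size factors, both applied to counts. The cause of these shifts was not tested, other than where the transcripts or members counted set them by construction. No member was 2-fold apart under any of the 6 alternatives run for that count. The number of overlapping neighbours was 0 with the alignment-free table, and with M4 the overlapping pair was Jund and Atf3. With M4 the order itself changed too, with Jun above Fosl2 and Batf above Fosb. The alignment-free table raised all 9 member levels, with a median ratio of 1.82 over detected protein-coding genes, and the protein-coding scale raised those genes by a median of 11.7 times. A single library gives no comparison between libraries, and no paired analysis was possible because the series holds 1 group. Fosl1 was the only member under the limit of 3 counts, with 2 and 0. Depth also limits results that rest on few counts. Batf had 316 and 352 expected counts, and Fosb-206 had 6.80 and 19.4 estimated counts in the alignment-free table.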
